A study of Mus musculus with 32 samples.

Results

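The outer segment genes described here are 9 mouse genes, Rp1, Rp1l1, Prph2, Rom1, Impg1, Abca4, Crb1, Cdhr1 and Aipl1, whose products build, maintain or contact the outer segment of photoreceptors. They were chosen by gene name from the 37310 genes of the count table, and all 9 were found there. RNA was sequenced from biopsies of 6 GMYC and 8 GTML mouse brain tumors, and the question was whether tumors driven by MYC and by MYCN differ in these genes. Both models are Tet-OFF transgenics kept on the FVB/N background, in which the Glt1 promoter expresses the transactivator tTA, so that the oncogene is switched on in Glt1-expressing cells of the hindbrain. GMYC mice (Glt1-tTA/TRE-MYC) carry a tetracycline-responsive MYC transgene, and GTML mice carry MYCN under the same control. The study treats both as models of Group 3 medulloblastoma (MB), a subgroup of childhood cerebellar tumors. The age of each mouse is not given in the sources used here, and the study describes a longer latency for GTML than for GMYC tumors, so age and model cannot be told apart. Per its methods the GMYC libraries were sequenced for the study and most GTML libraries came from earlier work, so sequencing occasion and model cannot be told apart either. The labels do not say that each biopsy came from a separate mouse, and p-values measure the spread between biopsies.

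The outer segment is the light-sensing end of a rod or cone. It is a modified cilium whose microtubule axoneme carries a stack of membrane discs, and it is renewed continuously from its base. Group 3 MB is known for expressing photoreceptor genes far from the retina, together with retinal transcription factors such as CRX, NRL and OTX2.

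Total counts per tumor ranged from 6218378 to 7279811 in GMYC and from 4602294 to 6317404 in GTML. Levels are given as CPM, counts per 1000000 of the library, with library sizes scaled by the trimmed mean of M-values (TMM), and a fold change is GTML over GMYC on the log2 scale. The counts followed the labels, since Myc was at 33.3 to 165 CPM in GMYC and 2.59 to 8.66 CPM in GTML, whereas Mycn was at 7.64 to 34.3 CPM in GMYC and 118 to 191 CPM in GTML. A pair of GTML biopsies stood apart in the outer segment genes. GTML tumor 3 was the highest of all 14 tumors in 9 of 9 genes, and GTML tumor 2 was the lowest GTML tumor in 8 of 9 and the lowest of all 14 in 4. Results are therefore given with and without GTML tumor 2, and without GTML tumor 3 where that changed a call. Both were singled out from these data and not by a label, so values without them are descriptions of how far 1 tumor decides a result. In the study 1 of the 8 GTML tumors clustered with the sonic hedgehog (SHH) subgroup of MB. The study's later comparison used the 7 GTML tumors classified as Group 3, and no label says which was left out. The summed level of 8 Group 3 MB markers was 557 to 1084 CPM in GMYC tumors and 580 to 1140 CPM in GTML tumors, lowest of the GTML tumors in tumor 2 and highest in tumor 3. In GTML tumor 3 most of that sum was Impg2 (747 CPM), itself a photoreceptor matrix gene, and Otx2 (329 CPM). Npr3 was at 6.31 CPM there, against up to 176 CPM in other GTML tumors, and Lhx2 at 4.15 CPM against up to 41.2 CPM. Eomes, at most 3.41 CPM in any tumor, was at 0 in GTML tumor 3. Gabra5 (38.03 CPM), Mab21l2 (10.46 CPM) and Barhl1 (4.816 CPM) were higher in it than in any GMYC tumor. The highest GMYC levels of these genes were 28.93, 9.15 and 3.87 CPM, and other GTML tumors held up to 41.4, 21.92 and 11.39 CPM.

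Sequences upstream of the first exon are shown for 5 genes as a description, and a link between motifs and levels was not tested. The first 3 hold the letters TAATCC or TAAGCC, the core bound by OTX2 and CRX. The other 2, Impg1 with the largest difference between the models and Cdhr1 with the highest mean level per length, do not. Each runs 5′ to 3′ on the strand of the gene, from RefSeq on GRCm38.p6 and trimmed of annotated exons, with matches on either strand in capitals (GGATTA and GGCTTA are the same motifs on the opposite strand). Rom1 is chr19:8929357-8929551 on the minus strand, Abca4 is chr3:122044210-122044442 on the plus strand, Aipl1 is chr11:72037510-72037759 on the minus strand, Impg1 is chr9:80465482-80465688 on the minus strand and Cdhr1 is chr14:37098348-37098597 on the minus strand.
Rom1: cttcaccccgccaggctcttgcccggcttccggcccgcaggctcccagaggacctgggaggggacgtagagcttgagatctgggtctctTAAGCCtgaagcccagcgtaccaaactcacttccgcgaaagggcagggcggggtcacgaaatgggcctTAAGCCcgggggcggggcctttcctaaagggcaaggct
Abca4: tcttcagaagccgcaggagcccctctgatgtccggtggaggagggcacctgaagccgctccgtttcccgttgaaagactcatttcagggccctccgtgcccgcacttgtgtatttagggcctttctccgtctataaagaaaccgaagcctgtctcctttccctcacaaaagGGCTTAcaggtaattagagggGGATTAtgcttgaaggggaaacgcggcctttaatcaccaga
Aipl1: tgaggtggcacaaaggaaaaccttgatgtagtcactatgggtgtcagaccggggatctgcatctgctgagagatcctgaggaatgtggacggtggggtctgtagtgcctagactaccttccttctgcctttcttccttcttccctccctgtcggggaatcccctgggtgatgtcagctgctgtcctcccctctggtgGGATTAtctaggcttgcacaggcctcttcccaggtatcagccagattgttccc
Impg1: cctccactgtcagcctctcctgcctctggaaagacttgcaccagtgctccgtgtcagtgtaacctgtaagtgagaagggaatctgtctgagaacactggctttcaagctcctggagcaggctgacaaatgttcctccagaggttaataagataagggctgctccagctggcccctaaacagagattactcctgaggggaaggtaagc
Cdhr1: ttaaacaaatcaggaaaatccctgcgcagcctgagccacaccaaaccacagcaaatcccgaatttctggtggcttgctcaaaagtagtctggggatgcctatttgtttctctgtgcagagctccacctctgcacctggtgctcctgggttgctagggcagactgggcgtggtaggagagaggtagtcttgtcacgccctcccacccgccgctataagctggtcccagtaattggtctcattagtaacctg

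Promoters of 7 of the 9 genes were in the reference table, which did not include Rp1 and Rp1l1. Counting from the gene's start, Rom1 held TAAGCC with its first base at positions -106 and -38. Abca4 held GGCTTA at -79 and GGATTA at -58, and Aipl1 held GGATTA at -53 and again at 10, outside the stretch shown. Over the window from 250 bases before to 50 bases after the start, 3 of 7 promoters held either motif, whereas 15.9% of the 32841 promoters of the table did. TAATCC was in 7.06% and TAAGCC in 9.48% of all promoters, no match listed here overlapped another, and a match is a description of letters, not a binding site. Prph2 and Crb1 held neither motif in this window.

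Rp1 and Rp1l1, on chromosomes 1 and 14, encode related proteins of the photoreceptor axoneme. RP1 binds the microtubules and keeps the discs aligned. Rp1 was at 2.68, 11.45 and 37.8 CPM (lowest, median and highest) in GMYC and at 16.2, 29.7 and 395 CPM in GTML. The 395 CPM were in GTML tumor 3, the next tumor held 77.8 CPM, and 3 of 8 GTML tumors lay above the highest GMYC tumor. The difference was 2.33 (standard error 0.837), with an adjusted p of 0.0578 in edgeR's quasi-likelihood test, which did not pass the threshold of 0.05. It was 2.48 (adjusted p = 0.0353) without GTML tumor 2, 2.81 (adjusted p = 0.0419) without GMYC tumor 4, 1.07 (adjusted p = 0.181) without GTML tumor 3 and 1.21 (adjusted p = 0.128) without both GTML tumors, so the size of the Rp1 difference rested largely on GTML tumor 3.

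Rp1l1 was among the most abundant of the 9 genes and differed least between the models. It was at 106.5, 200 and 350 CPM in GMYC and at 33.6, 289 and 486 CPM in GTML. GMYC tumor 6 was above all but 1 GTML tumor, and GTML tumor 2 was the lowest of the 14. The difference was 0.35 (standard error 0.392, adjusted p = 0.538) over all tumors and 0.52 (adjusted p = 0.140) without GTML tumor 2. Neither fit passed the threshold.

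Prph2 and Rom1, on chromosomes 17 and 19, encode the tetraspanins peripherin-2 and ROM1, which assemble with each other and hold the disc rim in its hairpin curve. Their coding sequences were 1038 and 1053 bases long and were identical at 61.1% of 963 aligned bases. Prph2 was at 14.4, 25.3 and 46.4 CPM in GMYC and at 11.4, 55.8 and 242 CPM in GTML, where 5 of 8 tumors exceeded the highest GMYC tumor. Its difference of 1.39 (standard error 0.522, adjusted p = 0.0667) did not pass over all 14 tumors. It passed without GTML tumor 2 (1.56, adjusted p = 0.0198), without GTML tumor 4 (1.52, adjusted p = 0.0479) and also without both GTML tumors 2 and 3 (0.98, adjusted p = 0.0293), but not without GTML tumor 3 alone (0.80, adjusted p = 0.147).

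Rom1 was at 7.49, 8.33 and 19.1 CPM in GMYC and at 7.79, 21.3 and 101 CPM in GTML. The GMYC tumors lay close together apart from GMYC tumor 2, which held the 19.1 CPM, and the next held 9.75 CPM. Rom1 was higher in GTML tumors by 1.72 (standard error 0.472, adjusted p = 0.0201), and 6 of 8 GTML tumors were above every GMYC tumor. The call was kept in 14 of 14 fits that left out 1 tumor, with differences of 1.23 to 2.00. In bulk tumor RNA, fewer cells expressing a gene and less RNA of it per cell cannot be told apart, for Rom1 or for any gene below.

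Abca4, on chromosome 3, encodes the transporter of the disc rim that clears retinal from the disc after bleaching. Abca4 was at 3.67, 33.3 and 79.7 CPM in GMYC and at 38.0, 142 and 430 CPM in GTML, where GTML tumor 2 held the 38.0 CPM and the 7 other tumors held 87.8 CPM or more. All 7 were above the highest GMYC tumor. With all 14 tumors the models did not overlap for 0 of 9 outer segment genes, against 2.14% of all 21024 genes tested in this direction. Without GTML tumor 2, left out because it was low in these genes, they did not overlap for 1 of 9, Abca4, against 4.40%, and nothing is read from that count. The difference was 2.33 (standard error 0.575, adjusted p = 0.0133), and 2.48 (adjusted p = 0.00500) without GTML tumor 2. The 14 fits that left out 1 tumor all called it, between 2.00 and 2.74.

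Impg1, on chromosome 9, encodes a proteoglycan of the matrix between photoreceptors, in which the outer segments are embedded. It was nearly absent from GMYC tumors, whose counts in order of tumor number were 1, 4, 0, 1, 0 and 2. GTML tumors held 3, 1, 166, 16, 9, 12, 10 and 21 counts, that is 0.162 to 27.6 CPM with a median of 2.13 CPM. GTML tumors 1 and 2 were within the GMYC range of 0 to 0.562 CPM and the other 6 were above it. Impg1 passed the filter on low counts through those 6 GTML tumors alone, so a difference in this direction was built into its being tested, and its difference of 4.59 (standard error 1.10, adjusted p = 0.0116) rests on at most 4 counts per GMYC tumor. Without GTML tumor 3 it was 3.15 (adjusted p = 0.0131).

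Crb1 and Cdhr1, on chromosomes 1 and 14, encode membrane proteins of the photoreceptor. CRB1 is a polarity protein of the junctions between photoreceptors and Müller glia beneath the inner segments, and CDHR1 is a photoreceptor cadherin at the base of the outer segment where new discs form. Crb1 was at 1.29, 8.24 and 15.9 CPM in GMYC and at 4.06, 22.4 and 82.4 CPM in GTML. It was higher in GTML by 1.81 (standard error 0.608, adjusted p = 0.0451), with 5 of 8 GTML tumors above the highest GMYC tumor. Of 14 fits that left out 1 tumor the call was kept in 4, those without GMYC tumor 4 or GTML tumors 1, 2 or 8, and the adjusted p ranged from 0.0158 without GTML tumor 2 to 0.0958. It was also kept without both GTML tumors 2 and 3 (1.53, adjusted p = 0.0319), but not without GTML tumor 3 alone (1.33, adjusted p = 0.0913).

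Cdhr1 was at 68.2, 91.4 and 211 CPM in GMYC and at 41.1, 200 and 433 CPM in GTML. GMYC tumors 4 and 6, at 196 and 211 CPM, were within the GTML range, and the 4 other GMYC tumors were at 109 CPM or below. The difference of 0.80 (standard error 0.405, adjusted p = 0.158) did not pass, and was 0.96 (adjusted p = 0.0372) without GTML tumor 2 and 0.76 (adjusted p = 0.0730) without GTML tumors 2 and 3.

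Aipl1, on chromosome 11, encodes a co-chaperone needed to fold the phosphodiesterase of phototransduction and acts in the inner segment. It was at 19.1, 28.0 and 82.4 CPM in GMYC and at 17.9, 110 and 161 CPM in GTML. The GTML tumors fell into 5 at 109.5 CPM or more and 3, tumors 2, 6 and 8, at 48.0 CPM or less. In GMYC tumor 2 Aipl1 stood at 82.4 CPM and in the next GMYC tumor at 42.2 CPM. Aipl1 was higher in GTML by 1.37 (standard error 0.455, adjusted p = 0.0426), a call kept in 4 of 14 fits that left out 1 tumor (GMYC tumor 2 or GTML tumors 2, 6 or 8), with adjusted p values of 0.00967 to 0.0947. The call was lost without GTML tumor 3 (1.23, adjusted p = 0.0717) and kept without both GTML tumors 2 and 3 (1.42, adjusted p = 0.0181). Aipl1 was the member whose level in GTML tumor 3 stood out least, since tumors 3 and 4 held 161 and 160 CPM.

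**Figure D1:**
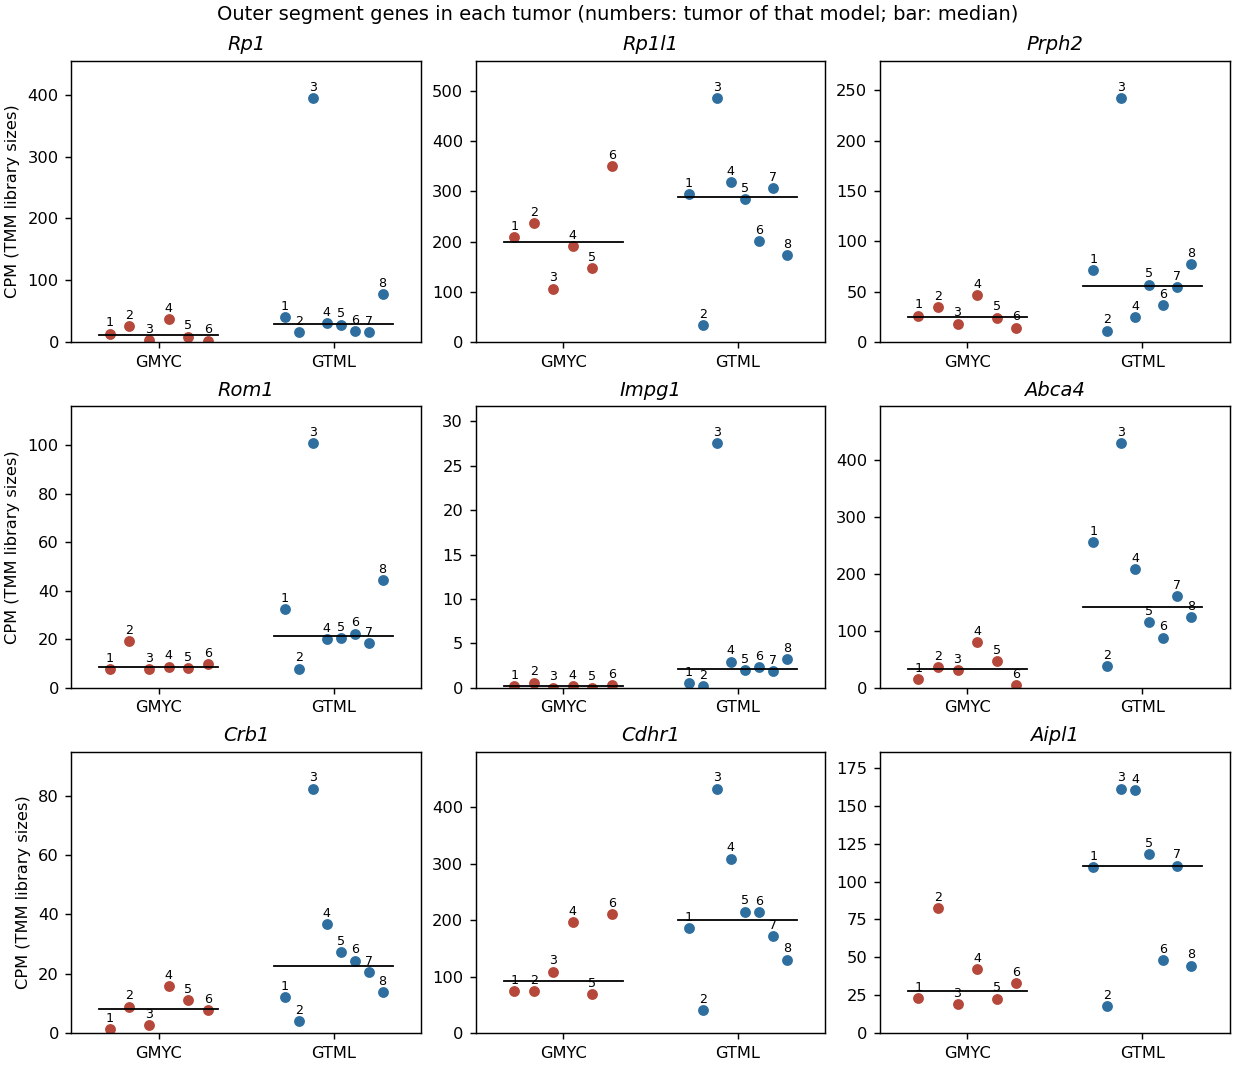
Level of each outer segment gene in each tumor, in CPM on TMM library sizes (vertical axes, linear and different for each gene), for 6 GMYC and 8 GTML tumors; each point is a tumor with its number and each line is the median of a model. GTML tumor 3 is the highest point in all 9 panels, and in the Abca4 panel the GTML tumors other than tumor 2 lie at 87.8 CPM or more, above the highest GMYC tumor at 79.7 CPM.

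Taking the 9 genes as a list, 5 were higher in GTML at an adjusted p under 0.05 (Rom1, Impg1, Abca4, Crb1 and Aipl1) and 0 were higher in GMYC. That is 55.6% of the list, where 11.5% of all genes tested were higher in GTML and 9.71% were higher in GMYC. At an unadjusted p under 0.05, 7 were higher in GTML and 0 in GMYC. The share of all genes at that threshold is not given here, so nothing is read from this count. DESeq2 called 6 of 9 higher in GTML, where 15.7% of all genes were, limma-voom called 3, where 9.99% were, and both called 0 higher in GMYC. Limma-voom without GTML tumor 2 called 7, where 15.4% of all genes were. At the study's thresholds (adjusted p under 0.01, log2 fold change beyond 1) edgeR called 0 of 9 over all 14 tumors, where 2.11% of all genes passed in the GTML direction. Without GTML tumor 2 it called 4 at those thresholds, Rom1, Impg1, Abca4 and Aipl1, where 4.96% passed, and limma-voom called 3, Rom1, Abca4 and Aipl1, where 5.10% passed. The median difference of the 9 was 1.72, beside 0.04 for all genes tested. Leaving aside Impg1, which passed the filter through GTML alone, 4 of the other 8 genes were called and their median was 1.56. DESeq2 called 5 and limma-voom 2 of these 8. Without GTML tumor 2, 8 of 9 genes were called, all but Rp1l1, where 15.6% of all genes were higher in GTML, and the median was 1.87 (7 of 8 without Impg1). Without GTML tumor 3 the genes called were Rom1, Impg1 and Abca4 (3 of 9, or 2 of 8 without Impg1, where 10.2% of all genes were), with a median of 1.23. Without both, 6 of 9 were called, or 5 of 8 without Impg1, where 14.6% of all genes were.

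**Figure D2:**
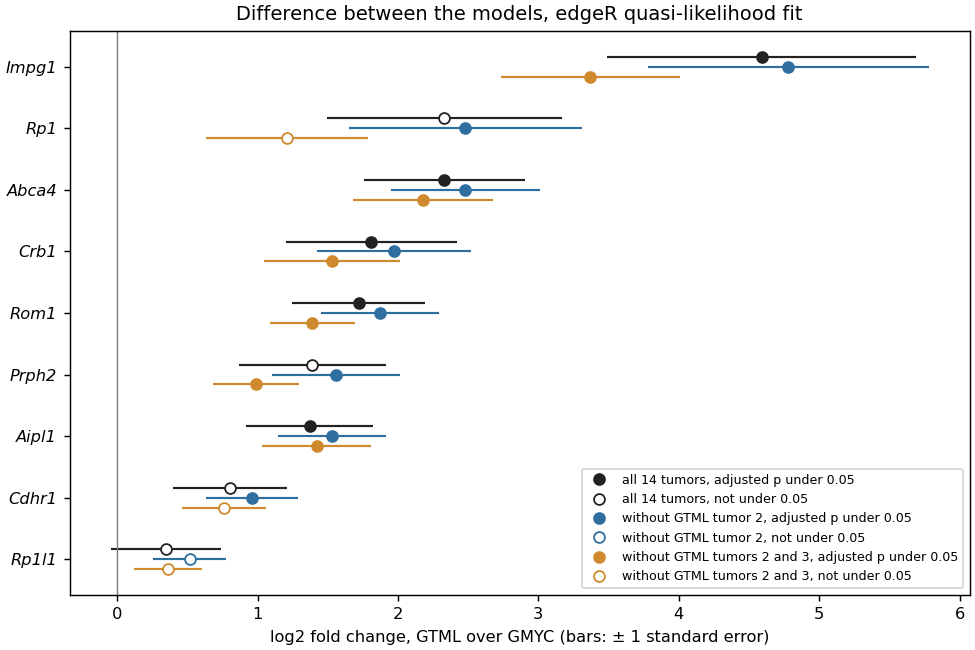
Log2 fold change of GTML over GMYC (horizontal axis) for each outer segment gene, from edgeR's quasi-likelihood fit over all 14 tumors (6 GMYC, 8 GTML), without GTML tumor 2, and without GTML tumors 2 and 3; bars are 1 standard error on either side and filled points have an adjusted p under 0.05. All 27 points lie above 0, Impg1 has the largest difference in all 3 fits, and Rp1 falls from 2.33 and 2.48 to 1.21 when GTML tumor 3 is also left out.

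The calls moved with other features of the libraries, whose part in the result was not tested. Small nucleolar RNA took more than 0.3% of counts in GMYC tumors 1 to 4 and GTML tumors 1 and 2, and less in the rest. These 6 are also the leading 6 tumor columns in the table as deposited, and no label says whether the order reflects a batch. Among the tumors with the higher share, which include GTML tumor 2, the differences of the 8 genes tested ran from -0.16 (Rp1l1) to 1.87 (Abca4) with a median of 0.45, and 0 were called by edgeR, as were 0% of all genes in that direction. At an unadjusted p under 0.05 there was 1 of 8, Abca4, with no share of all genes to set beside it. In the 8 remaining tumors, 2 of GMYC and 6 of GTML, the differences ran from 0.23 (Rp1l1) to 5.28 (Impg1) with a median of 2.07. There 1 of 9, Aipl1, was called, where 6.66% of all genes were. With the share as a term in the fit, the median was 1.30 and Abca4 alone was called, where 6.79% of all genes were higher in GTML. Y-linked genes had at most 16 counts in GTML tumors 2, 3, 5 and 8 and at least 1102 in every other tumor. With Y-linked expression as a covariate the median was 1.11 and 0 of 9 genes passed (lowest adjusted p = 0.0504, for Abca4), where 5.44% of all genes did. At an unadjusted p under 0.05 there were 5 of 9, again with no share of all genes to set beside them.

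Across the 14 tumors the outer segment genes rose and fell largely together. The summed level of the 9 genes was 170 CPM in GTML tumor 2, 298 to 632 CPM in the GMYC tumors, 656 to 1112 CPM in 6 GTML tumors and 2358 CPM in GTML tumor 3. Rp1l1, Cdhr1 and Abca4 made up 57.2% to 89.3% of each sum. By the median log2 CPM of the 9 genes, which weighs them equally, GMYC tumors ran from 3.33 to 5.41 and GTML tumors from 4.06 to 7.92. GMYC tumor 4 at 5.41 lay above GTML tumors 4 and 6, both at 5.21, and above GTML tumor 2 at 4.06. GMYC tumors 2, 3 and 5, at 5.12, 4.23 and 4.52, also lay above GTML tumor 2. How far GTML tumor 3 stood out differed by gene. Its level was 14.2 times the median of the other GTML tumors for Impg1 and 13.9 times for Rp1, 3.47 to 4.94 times for Rom1, Prph2, Crb1 and Abca4, and 2.33 times or less for Cdhr1, Rp1l1 and Aipl1. GMYC tumors also differed from each other by gene, since GMYC tumor 6 had the lowest Abca4, Rp1 and Prph2 of the model and the highest Rp1l1 and Cdhr1.

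**Figure D3:**
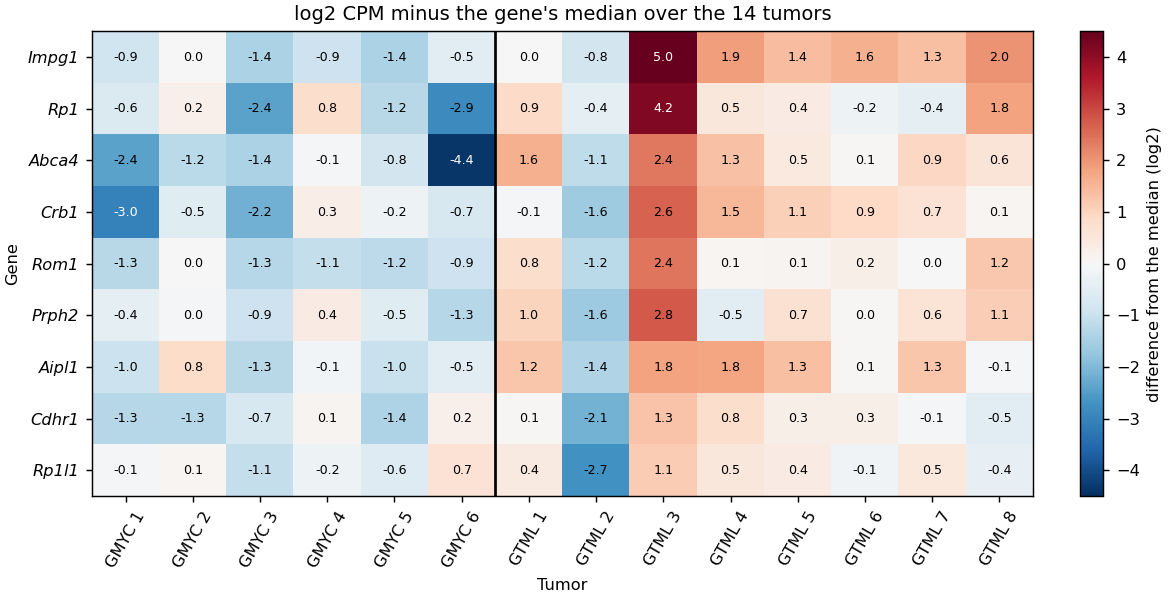
Log2 CPM of each outer segment gene (rows) in each tumor (columns) minus that gene's median over the 14 tumors; the color scale and the printed values are in log2 units, red above and blue below the median, and the black line divides 6 GMYC from 8 GTML tumors. The GTML tumor 3 column is positive in every row, the GTML tumor 2 column is negative in every row, and GMYC tumor 6 is blue for Abca4 and Rp1 but red for Rp1l1.

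Markers of other cells and tissues that contain or resemble photoreceptors were measured beside the outer segment genes. The pinealocyte list, of which 6 of 7 genes were in the table, summed to 3.87 to 56.0 CPM in GMYC and 16.2 to 166 CPM in GTML tumors other than tumor 3, and to 394 CPM in GTML tumor 3. Of its 5 tested genes 3 were higher in GTML, where 11.5% of all genes were. Of these 1, Cngb1, is also a rod gene and passed the filter through GTML alone. In GTML tumor 3 Chrna3 was at 147 CPM (up to 51.6 CPM in other GTML tumors) and Chrnb4 at 139 CPM (up to 41.9 CPM), whereas Tph1 was at 69.6 CPM (up to 90.3 CPM), Aanat, which makes melatonin's precursor, was at 1.99 CPM (up to 3.51 CPM), and Gng8 was at 0, with at most 3 counts in any tumor. The retinal pigment epithelium list of 8 genes summed to 4.34 to 14.3 CPM in GMYC and 8.93 to 42.8 CPM in GTML, with 36.7 CPM in GTML tumor 3. Of its 5 tested genes 2 were higher in GTML and 1 in GMYC, where 11.5% and 9.71% of all genes were. Mlana, at most 0.376 CPM in GTML tumors, passed the filter through GMYC alone. Pmel, at most 0.807 CPM in GMYC tumors, passed it through GTML alone. The direction of both was built into their being tested. Rpe65, the defining gene of this list, had at most 2 counts in any tumor and 0 in GTML tumor 3. There Tyrp1 (14.4 CPM) and Lrat (2.99 CPM) were the highest of the 14. The retinal bipolar cell list of 8 genes summed to 118 to 210 CPM in GMYC and 128 to 342 CPM in GTML, with 308 CPM in GTML tumor 3. Of these 8 genes 2 were higher in GTML, where 11.5% of all genes were. There were 6 further lists. Those for astrocytes and Müller glia (8 genes tested) and choroid plexus (5 tested) had 0 genes called in either direction. In the oligodendrocyte list 1 of 7 tested was higher in GTML, where 11.5% of all genes were. Higher in GMYC, where 9.71% of all genes were, were 1 of 7 tested cerebellar neuron genes, 1 of 8 for microglia and macrophages and 4 of 8 for blood and endothelium. The sums of these lists were 888 to 1488 and 642 to 1065 CPM for astrocytes and Müller glia in GMYC and GTML, 154 to 355 and 159 to 371 CPM for oligodendrocytes, 15.4 to 227 and 19.1 to 43.1 CPM for cerebellar neurons, and 7.74 to 13.9 and 12.4 to 29.5 CPM for choroid plexus. For microglia and macrophages they were 183 to 288 and 96.3 to 366 CPM, and for blood and endothelium 119 to 211 and 92.1 to 195 CPM. GTML tumor 3 was the highest tumor for none of these 6 lists. Its cerebellar neuron genes went both ways. Gabra6 and Ppp1r17 were at 0 in it, though Gabra6 was at most 0.704 CPM in other GTML tumors, and Calb1 and Pvalb were at 0.166 CPM. Cbln1, at 21.1 CPM, was the highest of the 14 tumors. Car8 was at 12.8 CPM, against up to 2.99 CPM in other GTML tumors and 39.1 CPM in GMYC. The part of these cells in the result was not tested.

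Levels of different genes were compared per length, as TPM, in which counts are divided by total exon length and scaled to a sum of 1000000 in each tumor. The order of the means was the same in both models. By median, Rp1l1 (89.6 TPM) was above Cdhr1 (68.6 TPM) in GMYC. Cdhr1 had the highest mean, at 193 ± 112 TPM (SD, n = 8) in GTML and 96.6 ± 54.7 TPM (SD, n = 6) in GMYC. Rp1l1 followed with 136 ± 70.6 and 93.1 ± 40.2 TPM, Aipl1 with 119 ± 68.1 and 39.6 ± 24.5 TPM, Prph2 with 95.2 ± 99.6 and 31.0 ± 13.5 TPM, and Rom1 with 86.8 ± 80.2 and 22.5 ± 9.46 TPM. Several neighbours in this order did not differ beyond their spread. Cdhr1 exceeded Rp1l1 in 7 of 8 GTML but 3 of 6 GMYC tumors, Aipl1 exceeded Prph2 in 6 of 8 and 2 of 6, and Prph2 exceeded Rom1 in 4 of 8 and 4 of 6. Rp1l1 exceeded Aipl1 in 6 of 8 and 6 of 6 tumors, and Rom1 exceeded Abca4 in 6 of 8 and 5 of 6. Abca4 was at 57.3 ± 40.8 TPM in GTML and 10.03 ± 7.79 TPM in GMYC and exceeded Rp1 in all 14 tumors. Rp1, with 25.4 ± 43.4 and 4.28 ± 3.88 TPM, exceeded Crb1, with 7.64 ± 6.95 and 1.88 ± 1.32 TPM, in 5 of 8 and 4 of 6 tumors. Impg1, the lowest at 5.66 ± 10.3 and 0.174 ± 0.192 TPM, was below Crb1 in 7 of 8 and 6 of 6. The exon lengths, 1517 bases for Rom1 to 14432 bases for Crb1, join the exons of all annotated transcripts, which lowers the TPM of a gene whose long forms are not used.

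**Figure D4:**
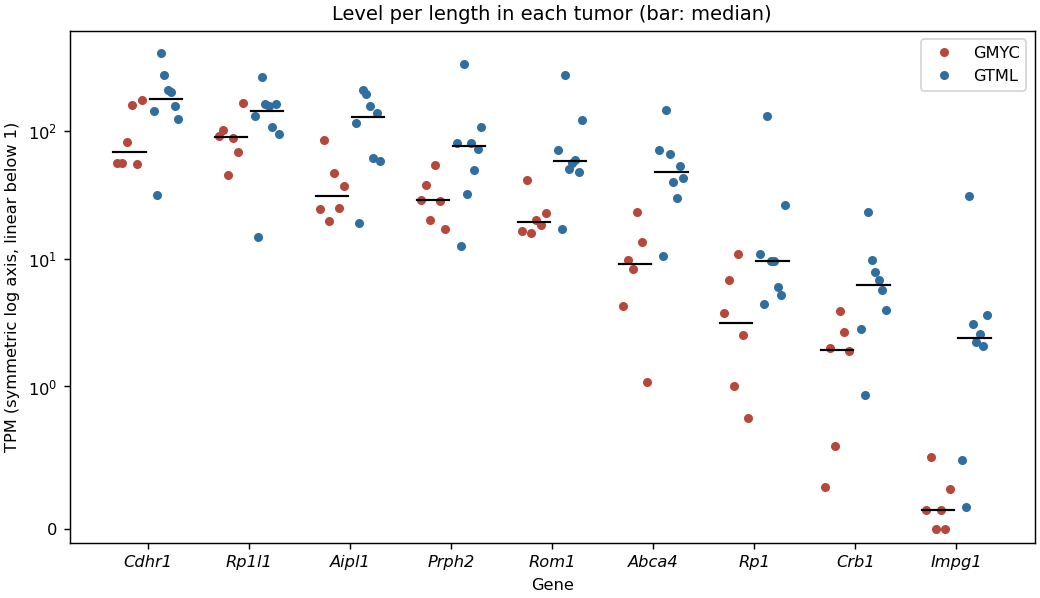
Level per exon length of each outer segment gene in TPM (vertical axis, logarithmic above 1 and linear below) in 6 GMYC and 8 GTML tumors; each point is a tumor and each line is the median of a model. Genes run in the order of their mean, from Cdhr1 at 193 TPM to Impg1 at 5.66 TPM in GTML.

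Spearman's rho between the log2 CPM of 2 outer segment genes was positive for 36 of 36 pairs over the 14 tumors, with a median of 0.71. The tumors share their model and depth, so these are descriptions. The median rho of the 9 genes with all 15333 protein-coding genes was 0.03. Rom1 and Impg1 were the most alike (0.88), followed by Crb1 and Aipl1 (0.85), and Rp1 and Rp1l1, both axoneme genes, were the least alike (0.25). Within the 8 GTML tumors the median was 0.56, within the 6 GMYC tumors it was 0.31 with 27 of 36 pairs above 0, and over the 12 tumors other than GTML tumors 2 and 3 it was 0.59. In those 12 tumors the pair of disc rim genes, Prph2 and Rom1, had a rho of 0.73, whereas Rp1l1 with Prph2 (0.01) and Rp1l1 with Rp1 (0.03) had almost none.

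**Figure D5:**
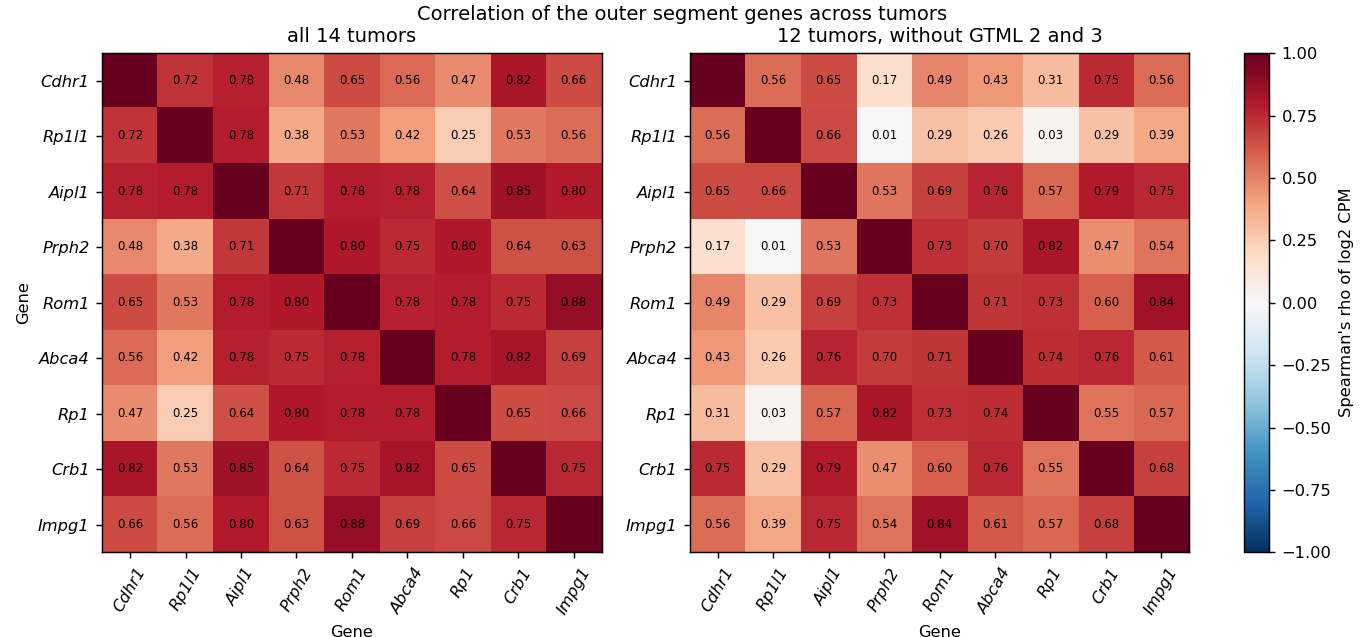
Spearman's rho of log2 CPM for each pair of outer segment genes (rows and columns) over all 14 tumors (left) and over the 12 tumors other than GTML tumors 2 and 3 (right), on a color scale from -1 (blue) to 1 (red). The palest cells are those of Rp1l1 with Rp1, at 0.25 on the left and 0.03 on the right, and of Rp1l1 with Prph2, at 0.38 and 0.01.

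For each outer segment gene the 3 protein-coding genes with the most similar pattern were taken by rho over the 14 tumors. The highest values were those of Aipl1 with Adamts3 (0.98) and L1cam (0.96), Rom1 with Cys1 (0.96) and Crb1 with Cyp11a1 (0.96). Cys1 (0 to 1.83 CPM) and Cyp11a1 (0.143 to 1.49 CPM) were near the floor, so few counts set their ranks. Prph2 was most like Iqcd (0.95), Abca4 like Gzmm (0.95), Rp1l1 like Ppp6r1 (0.94), Impg1 like Eogt (0.94), Cdhr1 like Vps53 (0.93) and Rp1 like Scn4a (0.91). None of the nearest 3 of any gene was another outer segment gene, and with 14 tumors and 15333 genes such values are a description.

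Other genes of the photoreceptor were taken as fixed lists beside the 9. Of 24 further structure and maintenance genes of the photoreceptor, 4 were higher in GTML (Fscn2, Rpgrip1, Rpgr and Gucy2f) and 0 in GMYC, that is 16.7% with a median difference of 0.37, near the 11.5% of all genes. The largest changes were those of Gucy2f, a retinal guanylate cyclase, and of Rpgrip1, which anchors RPGR at the connecting cilium. Gucy2f was at 0.281 to 1.98 CPM in GMYC and 2.11 to 58.1 CPM in GTML, a difference of 4.04 (standard error 0.757, adjusted p = 0.00477). The models did not overlap for it, as for 2.14% of all genes tested in this direction. Its GMYC median was 0.792 CPM, so few GMYC counts stand behind the fold. Rpgrip1 was at 16.04 to 106 CPM in GMYC and 17.05 to 424 CPM in GTML, a difference of 1.78 (standard error 0.541, adjusted p = 0.0302). Without GTML tumor 2 the list had 7 of 24 higher in GTML, 29.2% where 15.6% of all genes were.

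The rod phototransduction list had 9 of 14 genes higher in GTML, 64.3% where 11.5% of all genes were, with a median of 2.39. Limma-voom over all 14 tumors called 2 of these 14 genes, where 9.99% of all genes were higher in GTML. EdgeR called 1 of 14 at the study's thresholds (2.11% of all genes) and 1 of 14 with the small nucleolar RNA share as a term (6.79%). It also called 1 of 14 with the Y-linked covariate (5.44%) and 1 of 14 with the replicate number as a block (0.780%). Within the higher and lower sides of that share, 0 of 9 and 2 of 14 were called, where 0% and 6.66% of all genes were. The list had 10 of 14, 71.4% where 15.6% were, without GTML tumor 2. In the fits that left out 1 tumor 7 to 10 were called, where 6.84% to 15.6% of all genes were. Cngb1 exceeded 1 CPM in GTML tumors alone, so its direction was built into its being tested, and 8 of the other 13 were called, with a median of 2.00. The largest differences of the list were those of Gnat1, the rod transducin (5.59, standard error 1.35, adjusted p = 0.0121), and Rcvrn, recoverin (4.76, standard error 1.21, adjusted p = 0.0146). Gnat1 was at 0 to 1.545 CPM in GMYC and 0.487 to 121 CPM in GTML. Rcvrn was at 0 to 1.08 CPM and 0.645 to 59.45 CPM. GTML tumor 3 was the highest for both, so few GMYC counts stand behind either fold. Both genes are among the 8 called beside Cngb1. With GMYC medians of 0.206 and 0.218 CPM they could pass the filter only with GTML tumors above 1 CPM, which favored this direction. Of 8 cone genes tested (Opn1mw was not), 1 was higher in GTML, 12.5% where 11.5% of all genes were, with a median of 0.65. This was Pde6c, the cone phosphodiesterase (2.14, standard error 0.693, adjusted p = 0.0394), at 0.424 to 51.8 CPM in GMYC and 15.4 to 209 CPM in GTML. Of 14 fits that left out 1 tumor, 6 called any cone gene higher in GTML and 2 called any higher in GMYC. Without GTML tumor 3, 2 of 8 were higher in GMYC, where 8.31% of all genes were, and 0 in GTML. Among cone genes that did not pass, Pde6h, an inhibitory subunit, had a difference of -2.37 (standard error 0.857, adjusted p = 0.0581) and Cnga3, a channel subunit named here after its value was seen, one of 2.22 (standard error 0.868, adjusted p = 0.0766). Without GTML tumor 2, 4 of 8 cone genes were higher in GTML, 50% where 15.6% of all genes were. Without GTML tumors 2 and 3, 2 of 8 were higher in GTML and 2 in GMYC, where 14.6% and 13.2% of all genes were.

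Of 10 photoreceptor transcription factors 0 were higher in GTML, where 11.5% of all genes were, and 1, Neurod1, was higher in GMYC, where 9.71% were, with a median difference of 0.27 over the list. The difference of Neurod1 was small (-0.22, standard error 0.0746, adjusted p = 0.0426), at 216 to 258 CPM in GMYC and 185 to 225 CPM in GTML, and 3 of 14 fits that left out 1 tumor called a factor higher in GMYC. Nr2e3, which represses cone genes in rods, had a difference of 2.63 (standard error 0.947, adjusted p = 0.0581). Without GTML tumor 2, 2 of 10 passed in the GTML direction, Nr2e3 and Rxrg, 20% where 15.6% of all genes did. The median rho of the 9 outer segment genes over the 14 tumors was 0.59 with Nr2e3, 0.49 with Nrl, 0.48 with Prdm1, 0.46 with Rorb, 0.42 with Rxrg, 0.36 with Otx2 and 0.23 with Rax. It was -0.02 with Crx, -0.27 with Thrb and -0.42 with Neurod1. Crx was at 97.4 CPM in GTML tumor 2, the lowest of the 14, and at up to 429 CPM elsewhere.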

How the data were processed

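The study's methods name an Ion Proton instrument for the GMYC libraries, and the labels give Ion Torrent preparation for both models. Per the study's methods the authors aligned reads to mm9 with STAR and then Bowtie and used featureCounts with GENCODE genes for counting (the submitters' processing notes list STAR 2.4.0, Bowtie2 2.2 and Subread 1.5.2), and deposited whole-number counts of 37310 genes without normalization. Handling of strand and duplicates is not given in the sources used here, so reads of antisense partners cannot be told apart. Above a minimum exon length, no protein-coding gene exceeded 1.271 counts per exon base in any tumor. The highest gene of each tumor had a median of 1.195. Cdhr1 reached 0.602 and Crx 0.888 counts per exon base. Whether a ceiling on the counts narrowed the differences of highly expressed genes was not tested. A further 18 columns of per-sample counts matched no sample label and were not used.

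The members and the gene lists were chosen with earlier results of these data known. Symbols and exon lengths came from GENCODE M21 (GRCm38), matched by Ensembl identifier for 32620 genes. No exon of a member overlapped another gene's exons there. Promoters came from the RefSeq table of GRCm38.p6, and gene coordinates are not given because the counts were made on mm9. Tumors were grouped by the model in their labels. All pairs of biopsies of a model differed by more than counting noise (chi-square per degree of freedom at least 5.67 over 43 pairs).

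Genes above 1 CPM in 3 or more tumors (21024) were fitted with edgeR 4.0.16 in R 4.3.3 (TMM, quasi-likelihood test, Benjamini-Hochberg adjustment over all genes tested, called at an adjusted p under 0.05). The standard error is the log2 fold change divided by the square root of F. Log2 CPM used a prior count of 2. Alternatives were DESeq2 1.42.0, limma-voom (limma 3.58.1), other filters and scalings, the study's thresholds, a replicate block, the small nucleolar RNA share, a Y-linked covariate, thinned counts and leaving out each tumor. The split by small nucleolar RNA was noticed in the data and is not a label. Leaving out GTML tumors 2 and 3 together, and limma-voom or the study's thresholds without GTML tumor 2, were chosen after the data were seen. Total counts of 4602294 to 7279811 set the precision, and the code was tested on simulated counts. Genes named were the 9 members, the 2 with the largest change among those called in each list (failing that, among those tested), and the 3 most correlated with each member, of which the report prints the highest. Marker genes and Cnga3 fall outside this rule.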

Additional observations from a re-analysis of the deposited data

Results flagged for a closer look

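In 7 of the 18 gene and model groups, 1 tumor lay far from the rest in CPM, measured as its gap to the nearest tumor divided by the range of the group and set against Dixon's 95% critical value; chance alone flags about 1 in 20 groups, 0.9 of 18. In GTML it was tumor 3, always on the high side, for Impg1 (0.889), Rp1 (0.838), Prph2 (0.715), Rom1 (0.608) and Crb1 (0.582). In GMYC it was tumor 2, on the high side, for Rom1 (0.805) and Aipl1 (0.634). The groups are not independent, since the same tumors enter each. On the log2 scale 2 of the 18 groups were past the critical value: Rom1 in GMYC tumor 2 remained on the high side (0.721), and Rp1l1 in GTML tumor 2 was on the low side (0.612).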

How the results depend on the processing

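Over the alternatives the number of outer segment genes called higher in GTML (5 of 9) was 6 by DESeq2, 3 by limma-voom, 0 at the study's thresholds (adjusted p under 0.01, log2 fold change beyond 1 either way), 4 and 3 at those thresholds without GTML tumor 2 by edgeR and limma-voom, 1 with the small nucleolar RNA share as a term, 0 and 1 within its higher and lower sides, and 0 with the Y-linked covariate. It was 3 to 8 when 1 tumor was left out, the highest without GTML tumor 2, and 3 without GMYC tumors 1, 3, 5 or 6 or GTML tumors 3, 5 or 7. The median difference (1.72) was 0.45 within the higher side and 1.23 to 1.87 when 1 tumor was left out. In that higher side Rp1l1 was reversed, at -0.16 (adjusted p = 0.939 by edgeR's quasi-likelihood test), and Impg1 was not tested. With the replicate number as a block 0 of 9 were called, where 0.780% of all genes were, and the median was 1.5. In that fit 6 of 9 had an unadjusted p under 0.05, with no share of all genes to set beside them. Same-numbered biopsies did not deviate together (correlations of -0.21 to 0.24, and 1 of 6 correlated best with its own number), so the numbers do not pair them. No alternative called a member higher in GMYC. The causes of these changes were not tested. With 0 to 4 counts per GMYC tumor, depth limits Impg1 the most.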
